A study of Xenopus laevis with 59 samples.

Results

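The comparison described here sets the extreme vegetal section E against the neighbouring vegetal section D in small (stage IV) oocytes of the African clawed frog, *Xenopus laevis*. It compares 10 of the 59 libraries, namely sections D and E of each of the 5 small oocytes, paired by oocyte. Each oocyte had been frozen in a known orientation, cut into slices along the animal-vegetal (A-V) axis, and the slices shared equally and in order among sections A (extremely animal), B, C, D and E (extremely vegetal). Each section was sequenced as a library of its own after depletion of ribosomal RNA. All 5 small oocytes were untreated and came from female 1, with diameters of 810, 810, 810, 750 and 720 µm for oocytes 1 to 5, so that the spread between them is that of oocytes within 1 animal. The 15 libraries of sections A, B and C of the same oocytes served as the rest of the axis. They also entered the main fit, so that the spread behind each test came from all 25 libraries. Sections D and E of 2 medium and 2 big oocytes, also of female 1 and labelled stage V and stage VI (early and late stage V in the paper), and of 3 very small (stage III) oocytes of female 2 served for comparison between stages. The oocytes had been separated by hand from the ovary, and the methods name no step that strips off the follicle layers.

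The vegetal cortex of the frog oocyte is the thin layer below the membrane at the yolk-rich pole. RNAs reach it by an early pathway, in which the Balbiani body (mitochondrial cloud) carries germ plasm RNAs to the pole, and by a late pathway, in which kinesin-driven particles move RNAs such as vegt along microtubules. The paper also cites an intermediate pathway that combines or overlaps both. Its examples are plin2, dnd1, grip2, trim36 and rbpms or rbpms2. Germ plasm RNAs mark the future germ cells, and late pathway RNAs code for factors that pattern the endoderm, the mesoderm and the dorsal side of the embryo. An RNA held close to the vegetal pole is high in E and low in D, whereas an RNA filling the vegetal hemisphere is near equal in both. The paper describes late pathway RNAs as anchored over a wider part of the vegetal cortex. Section D has cortex of its own, so E against D cannot tell cortical RNA from deeper RNA.

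The study had checked the orientation of each oocyte by RT-qPCR of transcripts expected at 1 pole. It made libraries only from samples in which such markers formed a continuous gradient. The steps of the marker transcripts are thus not independent of that choice. The primer pairs for 4 of them that lie at the vegetal tip in the counts, and for both transcripts that do not, are shown because they are listed for 1 homeolog copy each. *X. laevis* is an allotetraploid, and the 2 copies of a gene (homeologs) end in .L and .S. Primers are written 5′ to 3′.
nanos1.L forward: gcaccttttctaatgttgctgc
nanos1.L reverse: tgccgagtgagacatcagtg
grip2.L forward: tttggctttggtctctaggc
grip2.L reverse: tttgtctgtaccaccggaga
wnt11b.L forward: cagcaccagactgagcctatt
wnt11b.L reverse: cccaaaactggcccctgaa
otx1.L forward: ctccctgtgtcgtcaagagc
otx1.L reverse: ggtatcctttgctccaccgt
exd2.L forward: gcagacccgcagtagaaca
exd2.L reverse: gaacccaagaaggtgcagga
ifrd2.L forward: atttgcggcttgctctctct
ifrd2.L reverse: cggaacaactcctccccttc

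Total counts ran from 2624527 to 7163780 in the 5 D libraries (median 3182336) and from 2617106 to 7356435 in the 5 E libraries (median 5802870). Replicates of D and of E correlated at a Pearson r of 0.964 to 0.983 on log2 CPM (counts scaled to the size of the library, 20 pairs of libraries), and no pair differed as little as sampling noise. A CPM value is a share of the RNA in its library, so it does not tell how much RNA a section held. Nor can fewer cells of a kind and less RNA per cell be told apart.

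Most called differences between D and E were gains at the tip. Of 17386 transcripts tested, 527 were called (3.03%). Of these 516 were higher in E (2.97%) and 11 were higher in D (0.0633%), by edgeR's quasi-likelihood test with the oocyte as block, at a Benjamini-Hochberg adjusted p (FDR) under 0.1. Of the 516, 369 (2.12% of those tested) differed at least 1.5-fold, 233 at least 2-fold, 65 at least 4-fold, 27 at least 8-fold and 10 at least 16-fold. In 505 of the 516, which were called on these same oocytes, the log2 ratio of E over D was positive in all 5. Called or not, E lay above D in all 5 oocytes for 1505 of the transcripts tested, and D above E for 916. The median log2 difference over all transcripts was -0.00. A fit of sections D and E alone called 887 transcripts higher in E and 238 higher in D, and the cause of that change was not tested. The 501 transcripts it shared with the 516 make up 97.1% of the latter.

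**Figure D1:**
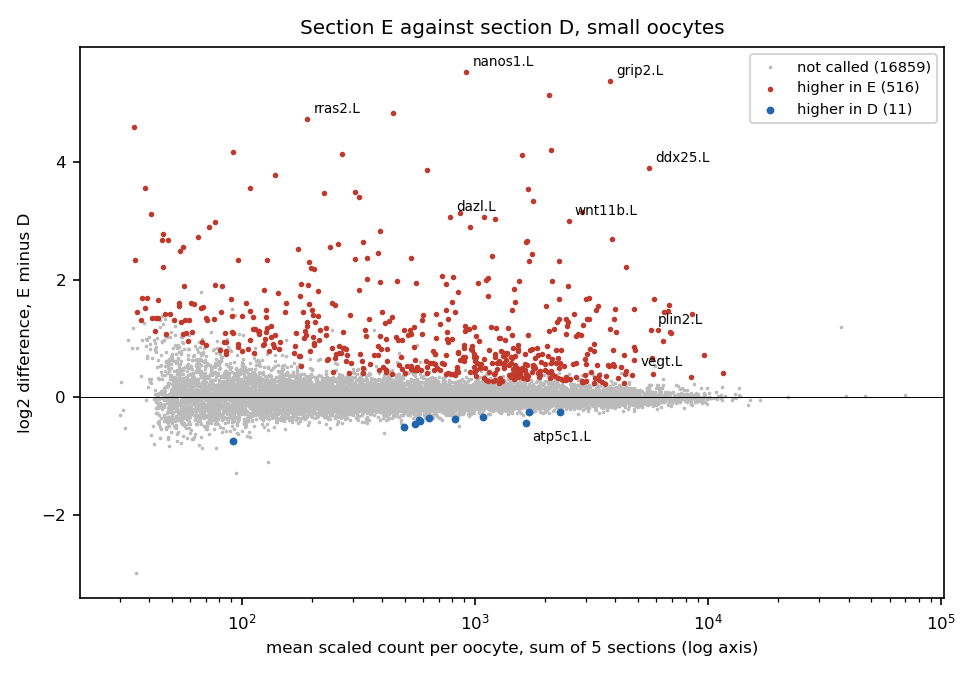
Log2 difference of E minus D (vertical axis) against the mean scaled count of a transcript per oocyte, summed over 5 sections (horizontal log axis), for each of 17386 transcripts. Red points are the 516 higher in E, which reach 5.54 for nanos1.L, blue points are the 11 higher in D, and grey points were not called.

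Germ plasm RNAs were among the steepest steps. nanos1.L, which codes for a translational repressor of the germ line, stood at 3.28, 2.84, 4.99, 6.49 and 4.63 CPM in section D of oocytes 1 to 5 and at 130, 192, 276, 245 and 245 CPM in section E. Every E library lay far above every D library, and section E held 97.0% of the nanos1.L counts of the 5 sections (mean of scaled shares). The log2 difference was 5.54 ± 0.20 (SE, n = 5 oocytes, edgeR FDR 4.56e-16), a 46.5-fold step.

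grip2.L, a germ plasm RNA for a scaffold protein needed by migrating germ cells in *Xenopus*, was 6.24, 11.7, 29.1, 38.9 and 20.1 CPM in D and 523, 1034, 850, 1202 and 852 CPM in E. Its groups did not overlap, and the log2 difference was 5.39 ± 0.23 (SE, n = 5, edgeR FDR 3.05e-15). Its copy grip2.S differed by 4.84. pgat.L, another germ plasm RNA of the frog, rose by 4.21 on the log2 scale. ddx25.L, for the DEAD box helicase known as DEADSouth, was 31.8, 50.5, 124, 141 and 86.8 CPM in D and 779, 1282, 1200.2, 1492 and 1433 CPM in E, without overlap, a difference of 3.90 ± 0.20 (SE).

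dazl.L codes for an RNA-binding activator of translation in germ cells. It measured 9.85, 18.0, 28.4, 26.5 and 17.6 CPM in D and 94.3, 183, 182, 207 and 157 CPM in E. The lowest E library was above the highest D library, and the log2 difference was 3.06 ± 0.13 (SE, n = 5, edgeR FDR 2.19e-15). In dazl.L the step from the mean of B and C up to D was as tall, at 3.07, and section D held 10.3% of its counts against 86.3% in E, whereas D held 2.00% for nanos1.L. Germ plasm RNAs thus differed in how far they reached into D.

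Other members of the germ plasm list had gentler steps. Among them are plin2 and dnd1, which the paper cites as examples of the intermediate pathway, as it does the steep grip2. By its own profiles the paper lists grip2 with dazl as vegetal early in both species, and dnd1 as localized late. velo1.L, for a relative of the fish Balbiani body organiser Bucky ball, differed by 1.41. plin2.L, for a lipid droplet coat protein, was 197, 259, 324, 297 and 319 CPM in D and 541, 635, 677, 585 and 598 CPM in E, a difference of 1.14 ± 0.11 (SE). All 5 E values were above all 5 D values. The .S copy, plin2.S, differed by 0.35 with overlapping ranges, and lost its call without oocyte 1, 2 or 4 (0.28, 0.35 and 0.34). dnd1.L, for an RNA-binding protein that shields germ cell mRNAs from microRNAs in zebrafish, was 78.1, 81.1, 103, 103 and 94.5 CPM in D and 162, 179, 179, 161 and 151 CPM in E, a difference of 0.87 ± 0.13 (SE) without overlap.

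Of the 26 germ plasm transcripts tested (30 in the table), 10 were higher in E (38.5%, against 2.97% of all transcripts), none was higher in D, and the median difference was 0.18. The others include both copies of rbpms2, for an RNA-binding protein of the Balbiani body. rbpms2.S was above D in E of all 5 oocytes, at a difference of 0.39 ± 0.13 (SE, edgeR FDR 0.148), and rbpms2.L in 4 of 5, at 0.25 (FDR 0.907). Neither passed the test, and their D and E ranges overlapped. rbpms2.S passed it with no filter on low counts (FDR 0.0019), in thinned libraries (0.078), with all 59 libraries in 1 fit (0.081) and with D and E alone (6.86e-05), and rbpms2.L with D and E alone (0.034). The low-count rbpms.L and rbpms.S stood at 0.12 and 0.31, each higher in E in 3 of 5 oocytes.

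**Figure D2:**
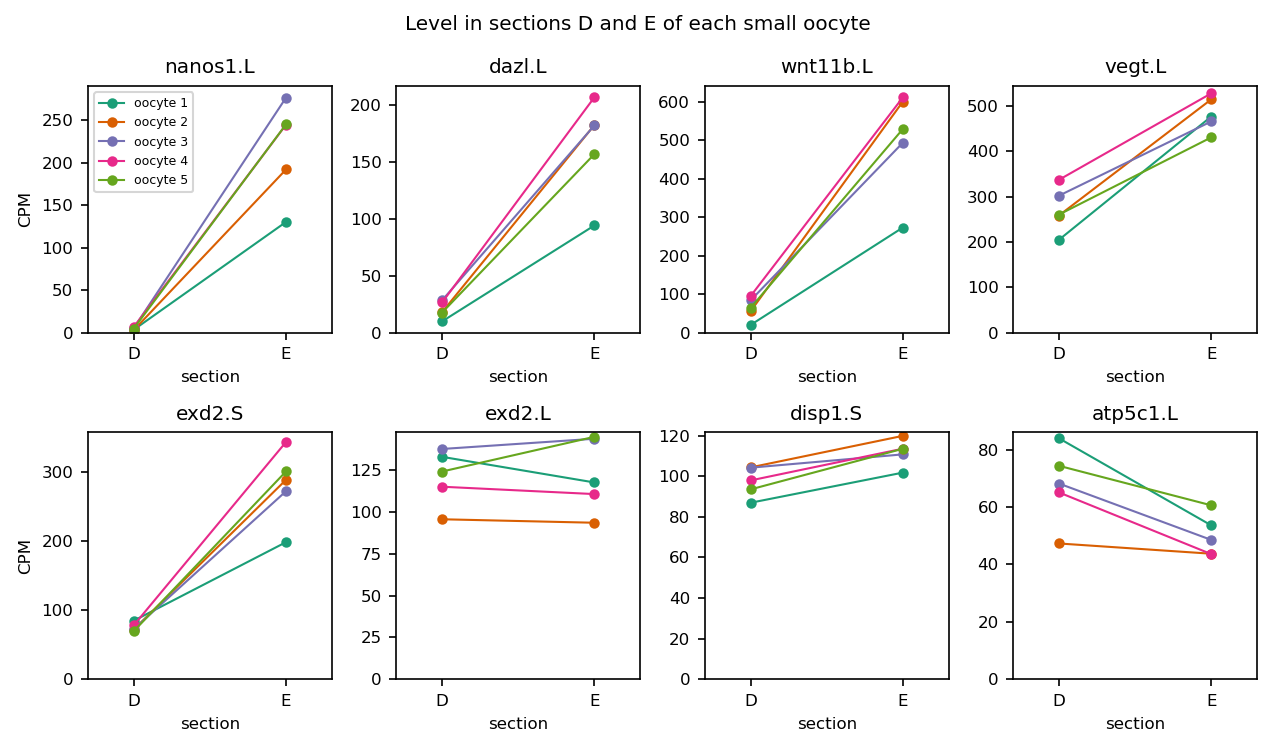
Level in CPM (vertical axes, from 0) in sections D and E of 8 transcripts, with 1 line for each of the 5 small oocytes. nanos1.L, dazl.L, wnt11b.L, vegt.L and exd2.S rise in every oocyte without overlap of the groups, exd2.L and disp1.S overlap between D and E, and atp5c1.L falls in every oocyte.

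The list of late pathway and vegetal patterning RNAs was drawn up with earlier results of these data known, so its count is a description and not independent evidence. The list joins both kinds, so membership does not place an RNA in the late pathway. In very small (stage III) oocytes the fitted step was 4.54 for rras2.L, 2.36 for wnt11b.L, 0.51 for vegt.L and 0.88 for vegt.S. Of 16 tested members (19 in the table), 14 were higher in E (87.5%, against 2.97% of all transcripts), none was higher in D, and the median difference was 1.58. wnt11b.L, for the maternal Wnt ligand of the dorsal side, was 19.7, 55.2, 83.6, 94.6 and 63.9 CPM in D and 273, 601, 494, 612 and 530 CPM in E. The groups did not overlap, although oocyte 1 was lowest in both sections. The difference was 3.00 ± 0.16 (SE, n = 5, edgeR FDR 1.97e-13).

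vegt.L, for the T-box factor that starts endoderm formation, was 205, 258, 302, 337 and 260 CPM in D and 476, 514, 466, 528 and 430 CPM in E. The step was 0.85 ± 0.12 (SE, n = 5, edgeR FDR 1.51e-05), the groups did not overlap, and vegt.S gave 0.81. Below it, the step from B and C to D was 0.94 for vegt.L and 1.00 for vegt.S, so that vegt RNA climbed by like amounts over both steps. Section D held 23.0% of vegt.L and section E 41.5%.

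The list spanned a wide range of steepness. rras2.L, for a small GTPase of the Ras family, differed by 4.74, zfyve26.L, for a FYVE domain protein, by 2.65, otx1.L, for a homeobox factor, by 2.32, bicc1.L, for an RNA-binding protein, by 2.22 and efnb1.L, for an ephrin ligand, by 1.94. zfyve26.L rose by only 0.51 from B and C to D, so that most of its slope lay in the last section. The reverse held for acsl1.L and acsl1.S, for a long-chain fatty acid ligase, which rose by 2.05 and 2.57 into D and by 1.34 and 1.498 from D to E. sox7.L, for an HMG box factor, rose by 1.38 into D and by 1.07 from D to E.

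exd2, which codes for an exonuclease, differed between its copies. exd2.S was 84.7, 71.9, 72.5, 78.0 and 69.5 CPM in D and 199, 289, 273, 344 and 302 CPM in E, a difference of 1.90 ± 0.11 (SE, n = 5, edgeR FDR 1.58e-12) without overlap. It was at the level of B and C in D, with a difference of -0.10, and was thus raised in the last section alone among the 4 sections B to E. exd2.L, the copy the primers are listed for, was 133, 95.6, 138, 115 and 124 CPM in D and 118, 93.5, 144, 111 and 145 CPM in E, and its difference of 0.02 (95% interval -0.29 to 0.34) did not pass the test. The other transcript with primers that did not rise, ifrd2.L, differed by 0.12 and its ranges overlapped.

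Dorsal axis genes rose at the tip in a small core. sybu.L and sybu.S, for the kinesin linker syntabulin that carries dorsal determinants, differed by 3.54 and 2.90, and trim36.L and trim36.S, for a ubiquitin ligase needed for the vegetal microtubule array in *Xenopus*, by 2.69 and 2.44. trim36.L was 37.8, 96.9, 180, 185 and 118 CPM in D and 507, 894, 692, 986 and 763 CPM in E, and the groups of all 4 transcripts lay apart. wnt5a.S, for a Wnt ligand, differed by 0.79, and fzd1.L, for a Frizzled receptor, by 0.37. These were the 6 called of 36 tested Wnt pathway and axis transcripts (16.7%, against 2.97% of all), none was higher in D, and the list median was 0.01, close to that of all transcripts.

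RNAs for a few proteins of transport and RNA control were higher at the tip. kif13b.L, for a kinesin-3 motor, was 35.5, 53.6, 72.5, 93.9 and 55.6 CPM in D and 308, 682, 551, 761 and 518 CPM in E, a difference of 3.16 ± 0.18 (SE) without overlap. Its copy kif13b.S differed by 0.61 ± 0.18 with overlapping ranges, and lost its call without oocyte 1, 2 or 4 (0.51, 0.60 and 0.53). ddx6.L, for a helicase of mRNA repression and decay, differed by 0.59. These were 3 of 40 tested motors and RNA-binding proteins of localization (7.50% against 2.97% of all transcripts), with a list median of -0.01.

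A few other transcripts rose in lists where the share called was near or above the 2.97% of all transcripts. lrp1.S and lrp1.L, for an endocytic receptor, differed by 1.46 and 0.67, and were the 2 called of 21 yolk uptake and endosome transcripts (9.52%). vcl.S, for the actin-membrane linker vinculin, differed by 0.72 and was the 1 called of 44 cortical actin, cytokeratin and septin transcripts (2.27%). pcnt.L, for the centrosome protein pericentrin, also differed by 0.72 and was the 1 called of 39 spindle and kinetochore transcripts (2.56%), both shares no higher than that of all transcripts. No member was called among 107 ribosomal protein transcripts, 20 histone chaperone and oocyte chromatin transcripts, 12 animal pathway transcripts and 6 egg envelope transcripts, whose list medians ran from -0.03 to 0.05.

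The 10 largest steps also took in transcripts outside these lists, among them loc101732660.L (5.16), loc779566.L (4.12) and Xelaev18028252m (3.87). loc101732660.L was 3.61, 9.15, 16.1, 27.8 and 9.58 CPM in D and 255, 557, 443, 663 and 529 CPM in E. loc779566.L was 9.85, 13.3, 25.7, 28.3 and 21.9 CPM in D and 196, 318, 421, 407 and 391 CPM in E, and neither overlapped between sections. No function is attached to either identifier, nor to Xelaev18028252m, in the table used for names, and 115 of the 516 transcripts had no symbol there.

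The vegetal hemisphere as a whole was used to tell held from spread RNA. By the mean of D and E against the mean of B and C, 338 transcripts (1.94%) were at least 1.5-fold higher in the vegetal pair and passed the test. Of these, 272 (80.5%) were held at the tip, that is, called and at least 1.5-fold higher in E than in D. Another 14 were spread, with a 95% interval of E minus D inside 1.5-fold either way, and none was subvegetal, the mirror of held at the tip. The remaining 52 were unresolved. E minus D was positive in all 14 spread and all 52 unresolved transcripts, and 20 of the 52 and 2 of the 14 were called higher in E. Both contrasts contain section E, so the split is a description. The rules also differ, since held at the tip rests on the estimate and its call, and spread on the whole interval. The 272 and 14 are thus not counts on equal terms. Held at the tip does not require a low D, and vegt.L, with 23.0% in D and 41.5% in E, is in that class. Nor does the name give the source of the RNA. The class also holds the aromatase RNA cyp19a1.L, and in 20 members A was at least 1.5-fold above B.

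The median transcript held at the tip had 46.8% of its counts in E, 18.8% in D and 11.0% to 11.6% in each of A, B and C. Of the 272, section E held over 75% of the counts in 45, over 90% in 10 and under 40% in 94. It held over 50% in 122 of the 369 transcripts at least 1.5-fold higher in E, vegetal or not. The median step was 1.29 from D to E and 0.72 from B and C to D, and the lower step was the larger in 46 of the 272. Together these transcripts took up 1.09% to 2.06% of the counts in D and 3.38% to 5.08% in E.

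**Figure D3:**
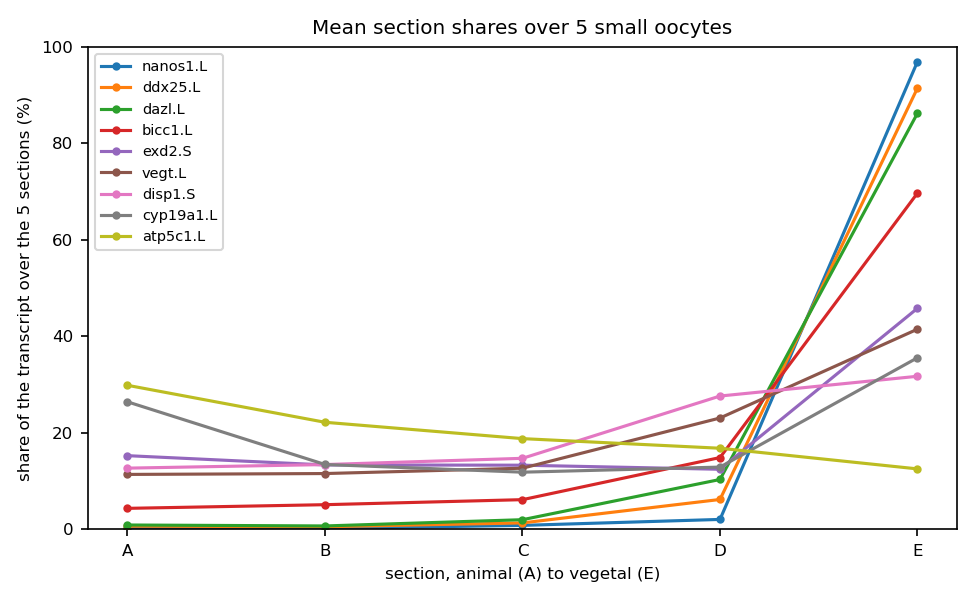
Mean share of a transcript (%, vertical axis) in each section from A to E over the 5 small oocytes, for 9 transcripts. nanos1.L reaches 97.0% in E with 2.00% in D, vegt.L has 23.0% in D and 41.5% in E, disp1.S has 27.6% and 31.7%, and cyp19a1.L is high at both ends.

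The spread transcripts had a median of 24.6% in D and 28.8% in E, with steps from D to E of 0.04 to 0.38. disp1.S, for the Dispatched protein that releases Hedgehog from cells, was 87.0, 104, 104, 98.0 and 93.6 CPM in D and 102, 120, 111, 114 and 114 CPM in E. It was a little higher in E in every oocyte, by 0.20 ± 0.10 (SE, edgeR FDR 0.667), while it had risen by 0.98 from B and C to D. stard3.S, for a sterol transfer protein, differed by 0.18, cited2.L, for a transcriptional coregulator that binds CBP and p300, by 0.24, soga1.L by 0.16 and Xelaev18046171m by 0.08, each after a rise of 0.93 to 0.99 into D. Their D and E ranges overlapped.

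Section D itself stood above B and C in 236 transcripts (1.36%) and below them in 13. Of the 369 transcripts at least 1.5-fold higher in E than in D, 184 were also higher in D than in B and C, 185 were not called in that comparison, and none was lower. The number higher in D fell to 154 without small oocyte 4.

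Other transcripts were higher at the tip without passing as vegetal. They are set apart by the 1.5-fold limit and the test only, and are a mixed group. wnt5a.S is among them, at 0.53 ± 0.08 (SE) for the vegetal pair against B and C and -0.24 for A minus B. Of the 369, 97 did not pass as vegetal, and in 51 of these A was at least 1.5-fold above B, as it was in 20 of the 272 held at the tip. The median difference of A minus B was 0.64 in the 97 and 0.01 in the 272, the median of D minus B and C was -0.16 and 0.72, and the median count per oocyte 137 and 844. A was called above B in 40 transcripts (0.230%) and below B in 10 (0.0575%), and 27 of the 40 were also higher in E than in D, which is 67.5% of the former and 5.23% of the 516. The count at the animal tip varied widely, from 3 without small oocyte 4 and 7 without small oocyte 2 to 69 without small oocyte 1. It was 1 without the oocyte block and 225 with no filter on low counts.

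**Figure D4:**
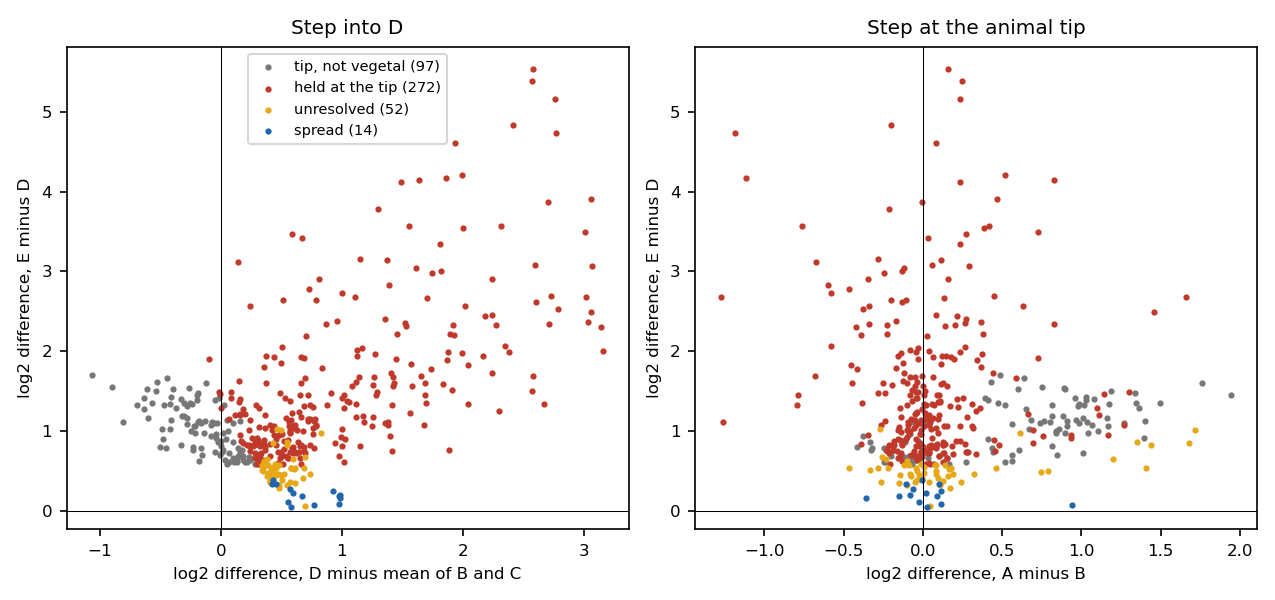
Log2 difference of E minus D (vertical axes) against D minus the mean of B and C (left) and against A minus B (right). Shown are the 272 transcripts held at the tip (red), 52 unresolved (yellow), 14 spread (blue) and the 97 higher at the tip that did not pass as vegetal (grey). The red points reach far to the right on the left panel, and the grey points lie mostly right of 0 on the right panel, with a median A minus B of 0.64.

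Markers of the cells that surround an oocyte were looked up in both groups. The filter lets a low-count transcript into the test through its 5 E libraries alone. In the granulosa and stroma lists the share higher in E can be raised by this filter. Those shares are therefore a description, and the effect of the filter on them was not tested. Of 9 tested granulosa and follicle cell transcripts (25 in the table), 4 were higher in E (44.4%, against 2.97% of all transcripts), none was higher in D, and the median difference was 0.98. cyp19a1.L, for aromatase, was 9.52, 2.21, 8.05, 6.35 and 2.47 CPM in D and 28.9, 6.42, 17.6, 16.02 and 8.00 CPM in E. E was above D in every oocyte, although the ranges overlapped, by 1.46 ± 0.19 (SE, edgeR FDR 3.11e-06), and A was above B by 1.14. inha.L, for the inhibin alpha subunit, differed by 1.49, and fst.L and fst.S, for the activin antagonist follistatin, by 1.54 and 0.94. The fst.S call was lost without oocyte 1, 4 or 5 (0.75, 1.06 and 0.85). Of these, cyp19a1.L and fst.S fall among the 272, and 2 of the 9 were called higher in A than in B (against 0.230% of all transcripts). Of the 9, 8 had a positive difference from D to E, and the lowest stood at -0.34. The granulosa marker amh.S went the other way, at a median of 4.60 CPM in D and 2.81 CPM in E, with overlapping ranges.

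Of 20 tested stroma, theca and smooth muscle transcripts (36 in the table), 9 were higher in E (45.0%, against 2.97% of all transcripts), none in D, with a median of 0.99. Of the 20, 5 were called higher in A than in B (against 0.230% of all transcripts). col1a1.S, for a chain of type I collagen, was 29.9, 0, 32.6, 20.6 and 4.32 CPM in D and 65.7, 0, 91.7, 28.7 and 29.7 CPM in E. Oocyte 2 had no count of it in either section, and the ranges of the others overlapped. The difference was 1.40 ± 0.30 (SE, edgeR FDR 0.00684), and A was above B by 1.08. col3a1.L, col1a1.L, sparc.S and col6a1.S, for other matrix proteins, differed by 0.91 to 1.41. Levels varied so much between oocytes that without the oocyte block the FDR of these 5 was 0.663 or more. The call of col1a1.L was lost without oocyte 5 (0.98) and that of col6a1.S without oocyte 4 or 5 (0.82 and 0.85). Of 18 basement membrane transcripts, 6 were higher in E (33.3%), with the largest steps in col4a2.L (1.16), lamb1.L and lama1.L (both 1.07). Of the 18, 1 was called higher in A than in B (against 0.230% of all transcripts). The calls of col4a2.L and lama1.L were lost without oocyte 1 or 3 (1.17 and 0.97) and without oocyte 4 (0.96). Of 5 blood and endothelium transcripts none was called, while the globin RNA hba1.L differed by 1.79 without passing the test.

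The summed level of the stroma and granulosa lists was higher in E than in D in all 5 oocytes, though by little for stroma in oocyte 2, and that of the basement membrane and of the blood and endothelium lists in 3 of 5. The stroma list summed to 16.1 to 229 CPM in D and 16.9 to 494 CPM in E, and the granulosa list to 11.4 to 36.0 CPM in D and 23.3 to 74.3 CPM in E. Oocyte 2 had the least of both in E. There the stroma list summed to 16.9 CPM, and 12 of its 20 tested members were at 0 in D and 11 in E. The granulosa list rose in that oocyte from 11.4 CPM in D to 23.3 CPM in E. The median log2 ratio of E over D over the 272 transcripts held at the tip was 1.51 in oocyte 2, the highest of the 5 oocytes, and nanos1.L reached 5.85. For the 97 the median ratio in that oocyte was 0.80, within the 0.77 to 0.95 of the 5 oocytes. The part of surface cell RNA in the steps of the 272 and of the 97 was not tested.

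In the main fit 11 transcripts were called higher in D, and their steps were small. The number depended on the fit, with 238 from D and E alone and 18 from all 59 libraries in 1 fit. atp5c1.L, for the gamma subunit of ATP synthase, was 84.0, 47.3, 68.3, 65.2 and 74.4 CPM in D and 53.6, 43.8, 48.6, 43.6 and 60.6 CPM in E. D was higher in each oocyte, but the ranges overlapped, and the log2 difference was -0.43 ± 0.11 (SE, n = 5, edgeR FDR 0.0203). It was the 1 member higher in D of 125 oxidative phosphorylation transcripts (against 0.0633% of all transcripts). Their median was -0.08, and 37 of the 125 had a positive difference. cox4i2.L was the 1 higher in E (0.8%, against 2.97% of all transcripts), at 1.32 and low counts. The cox4i2.L call was lost without oocyte 1, 2 or 5 (1.35, 1.25 and 0.99).

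trove2.L, for the Ro60 RNA-binding protein, was 35.5, 38.2, 35.3, 37.4 and 41.7 CPM in D and 25.6, 27.7, 30.2, 28.3 and 34.3 CPM in E, a difference of -0.36 ± 0.10 (SE, edgeR FDR 0.054) without overlap. atrip.S, for the partner of the ATR kinase, differed by -0.34, scap.L, for the escort of sterol regulatory element-binding proteins, by -0.26 and tsc22d1-like.L by -0.25, and their groups also lay apart. loc100495848.S (-0.50), med15.S (-0.45), for a Mediator subunit, Xelaev18022224m (-0.40) and march3.S (-0.39), for a ubiquitin ligase, complete the 9 named. The 9 differences lay at FDRs of 0.0203 to 0.0957. Without small oocyte 1 no transcript was higher in D, and without oocytes 2 and 4 there were 3 and 5.

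The oocytes differed in how steep they were. The median log2 ratio of E over D over the 272 transcripts was 1.46, 1.51, 1.03, 1.14 and 1.21 in oocytes 1 to 5, and 271 or 272 of them were positive in each. The 272 had been picked for a higher E in these same oocytes, so their signs are no separate evidence. Oocytes 3 and 4, with the lowest medians, also had the highest D levels of wnt11b.L, bicc1.L and trim36.L. bicc1.L was 63.4, 138, 227, 238 and 163 CPM in D and 482, 934, 699, 924 and 746 CPM in E. exd2.S ran the other way in oocyte 1, where its ratio of 1.23 was below the 1.91 to 2.14 of the other 4.

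Homeolog copies did not always share a step. Both copies were tested in 5052 pairs, and in 256 pairs at least 1 copy was higher in E. In 47 of these both were, in 209 only 1 was, and in 196 both differences were positive. Across the 256 pairs the 2 copies' differences correlated at a Pearson r of 0.22, a description over genes that were picked for a high copy. The difference between copies was not tested.

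The step was compared with that of other stages in 1 fit of all 59 libraries, in which 19210 transcripts were tested. Sections are equal parts of each oocyte, so D and E are thicker in larger oocytes. Section thickness and stage cannot be told apart in these comparisons. In medium and big oocytes the log2 step of E minus D was higher than in small oocytes (called steeper) for 44 transcripts (0.229%). It was lower (called less steep) for 5 (0.0260%). Less steep thus includes steps that turned toward D, at -0.91 for soga1.L, -0.60 for soga1.S, -0.25 for rlim.S and -0.06 for rrm1.S in medium and big oocytes. Of the 272 transcripts held at the tip in small oocytes, 1 was steeper and 1 less steep, and their median step was 1.28 at either size. The 272 had been chosen by their step in small oocytes, so the like medians are a description only. Of the 44, 29 had not been called in small oocytes. Leaving out big oocyte 1 or medium oocyte 2 lowered the 44 to 12 or 16, and leaving out small oocyte 4 or 5 lowered it to 27 or 22.

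dnd1.L is the transcript held at the tip that steepened. Its log2 ratio was 1.04, 1.12, 0.80, 0.65 and 0.66 in the 5 small oocytes, 1.72 and 1.49 in the medium and 2.33 and 1.499 in the big. The groups did not overlap, and the steps differed by 0.88 ± 0.18 (SE, edgeR FDR 0.0116). In the 3 very small oocytes it was 0.49, 0.01 and 0.15. Without big oocyte 1 the difference was 0.68 and lost its call.

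camsap1.L, for a protein that binds the minus ends of microtubules, had ratios of 0.26, 0.28, 0.19, 0.50 and 0.05 in the small oocytes and of 0.90, 1.17, 1.38 and 0.88 in the medium and big. The steps differed by 0.81 ± 0.14 (SE, edgeR FDR 0.00325). lurap1.L, tmem59.L and lrrc14.L steepened by 0.80, 0.80 and 0.88, and none of these 4 was called in the test of small oocytes. lrrc14.L was called there in the fit of all 59 libraries (0.48, FDR 0.0727), and all 4 were with D and E alone (FDR 0.0039 to 0.073). The calls of camsap1.L and lurap1.L stood without each oocyte, at 0.68 to 0.94 and 0.72 to 0.92, while those of tmem59.L and lrrc14.L were lost without big oocyte 1 (0.58 and 0.82), medium oocyte 2 (0.70 and 0.76) and small oocytes 4 (0.74 and 0.82) and 5 (0.74 and 0.79).

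soga1.L, by contrast, had a step that fell. Its ratio of E over D was 1.36, 0.74 and 1.66 in very small oocytes, -0.01, 0.25, 0.10, -0.28 and 0.60 in small ones, and -0.996 and -0.865 in medium and -0.76 and -1.06 in big ones. The fitted step fell from 1.24 at stage III to 0.15 at stage IV and to -0.91 in the larger oocytes. Small differed from very small by -1.09 ± 0.21 (SE, edgeR FDR 0.095), and medium and big from small by -1.06 ± 0.20 (SE, edgeR FDR 0.00531). The groups of ratios did not overlap in either comparison. soga1.L was thus higher at the tip, then about equal, then higher in D. It belongs to the 14 spread transcripts, whose median step was 0.18 in small oocytes and -0.24 in medium and big ones. Among them disp1.S, stard3.S, cited2.L and Xelaev18046171m went to -0.23, -0.36, -0.20 and -0.91, but their differences between stages did not pass the test. The 14 had been chosen in small oocytes, so these values are a description.

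soga1.S, rlim.S, for a ubiquitin ligase, and rrm1.S, for the large subunit of ribonucleotide reductase, also had lower steps in medium and big oocytes, by -0.59, -0.51 and -0.46, and Xelaev18032348m went from 2.06 to 0.999. Each of these 4 lost its call without big oocyte 1 (-0.55, -0.51, -0.43 and -1.08) and without others. Against very small oocytes soga1.L was the 1 transcript of 19210 (0.00521%) with a less steep step in small oocytes, and none was steeper by edgeR's test, with 518 at an unadjusted p under 0.05. The median step of the 272, which were chosen in small oocytes, was 0.94 in very small oocytes. Stage and female cannot be told apart in that comparison, and the soga1.L call was lost without small oocyte 1, 2 or 4 or very small oocyte 1 or 3 (-1.06, -1.12, -0.99, -1.02 and -0.92).

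**Figure D5:**
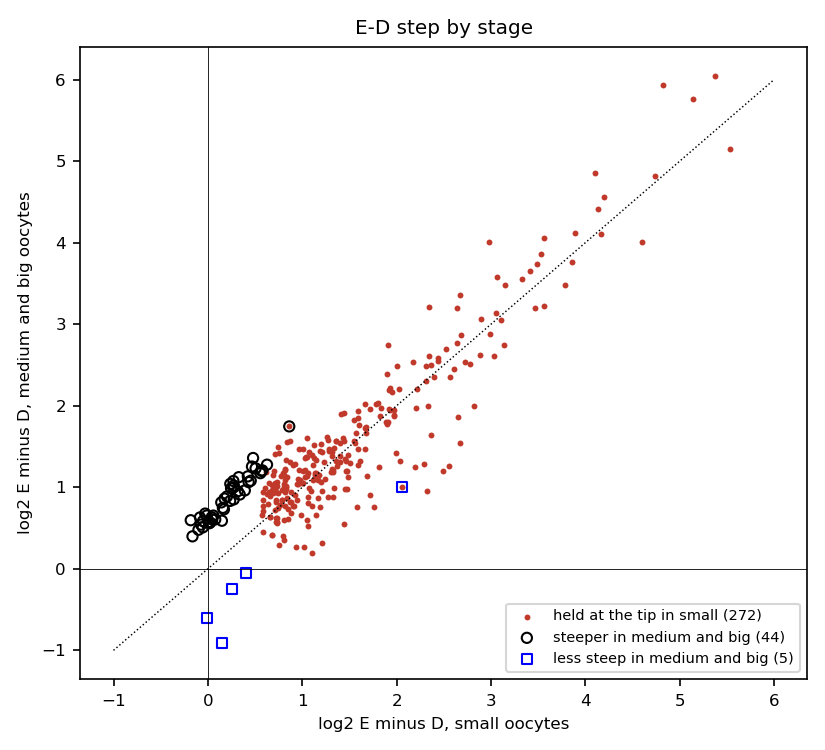
Log2 difference of E minus D in medium and big oocytes (vertical axis) against that in small oocytes (horizontal axis), with the line of equal steps dotted. The 272 transcripts held at the tip (red), chosen by the values on the horizontal axis, lie along the line with a median of 1.28 on both axes. In medium and big oocytes 44 transcripts (circles, labelled steeper) had a higher step and 5 (squares, labelled less steep) a lower one.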

How the data were processed

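Reads had been trimmed (Trimmomatic), cleared of ribosomal and mitochondrial sequence (SortMeRNA), aligned to *X. laevis* v9.1 by STAR 2.5.2b and counted by htseq-count, so that the counts deposited by the authors are whole reads per transcript with no normalization. Of 32291 transcripts, the 17386 left by edgeR's filterByExpr over sections of the 25 small libraries were tested. TMM factors and quasi-likelihood tests came from edgeR 4.0.16 in R 4.3.3, with oocyte and section as terms and 1 spread for all 25 libraries. Calls needed an FDR under 0.1 and a mean scaled total above 20 counts per oocyte. Log2 CPM used a prior count of 2. Stage tests used all 59 libraries with 12 oocytes as block. D and E of an oocyte carry the same replicate label, and deviations of D and E from their section means correlated at r of 0.357 to 0.506 within an oocyte and -0.345 to 0.104 between oocytes. Table names were matched to RefSeq symbols (17189 by symbol, 506 by synonym), used as names only.

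Named are the 10 largest steps in each direction with a total of at least 100 and 1 sign in all oocytes, transcripts the paper names or has primers for, up to 5 called members per list, the 5 spread transcripts with the largest vegetal difference and the 5 largest stage differences in each direction. The late pathway RNA gdf1 (Vg1) and the animal RNA pabpc4, which the paper also names, are not among them. gdf1 was not matched to the deposited names. Others named were chosen after their values were seen. Of the 10 largest steps, 1 transcript is not reported here. The members and lists were chosen with earlier results of these data known. The tests were tested on simulated data. Alternatives were other size factors, no low-count filter, no block, DESeq2 1.42.0, libraries thinned to the shallowest, FDR under 0.05, other fold limits, sections D and E alone, all 59 libraries in 1 fit and each oocyte left out. The remaining files, which hold authors' normalized values or another species, were not used here.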

Additional observations from a re-analysis of the deposited data

Results flagged for a closer look

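In 7 of the 79 named transcripts 1 oocyte stood far from the other 4 in its log2 ratio of E over D, by Dixon's criterion for 5 values, which chance alone meets in about 1 of 20 groups. rras2.L reached 6.89 in oocyte 2, where section D had no count, against 3.60 to 4.43 in the others. exd2.S was 1.23 in oocyte 1 against 1.91 to 2.14. cox4i2.L was 3.11 in oocyte 5 against 0.69 to 1.38, also with no count in D. nup93.L was -0.38 in oocyte 2 against -0.03 to 0.00. hspg2.L was 0.13 in oocyte 1 against 0.80 to 0.99, lamb1.S was 0.056 in oocyte 5 against 0.52 to 0.66, and rlim.S was 0.11 in oocyte 4 against 0.29 to 0.35.

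The step from D to E differed between stages in the edgeR test of the difference itself. It was higher in medium and big oocytes than in small ones for 44 transcripts and lower for 5, and lower in small than in very small oocytes for 1. The differences of medium and big minus small were 0.88 for dnd1.L, 0.88 for lrrc14.L, 0.81 for camsap1.L, 0.80 for lurap1.L, 0.80 for tmem59.L, -1.06 for soga1.L, -1.06 for Xelaev18032348m, -0.59 for soga1.S, -0.51 for rlim.S and -0.46 for rrm1.S. That of small minus very small was -1.09 for soga1.L.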

How the results depend on the processing

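The number higher in E was 376 to 617 under the alternatives other than the fit of D and E alone and the criterion of at least 1.5-fold (369), and 417 to 525 with each oocyte left out. Thinning all 25 libraries to the shallowest one kept 357 of the 516. None of the 59 called steps among the named transcripts changed sign, and 40 kept their call without each of the 5 oocytes. With sections D and E alone 887 were higher in E and 238 in D. At least 1.5-fold, 1 was higher in D. At 2-fold limits 189 were vegetal, 158 held at the tip and 9 spread. With no filter on low counts, 32 were lower in D than in B and C, 225 higher and 114 lower in A than in B, and the stage tests gave 33 less steep in medium and big, and 53 steeper and 4 less steep in small than in very small oocytes. Without the replicate block 385 were higher in E and 3 in D, 1 was higher and 2 lower in A, and the stage tests gave 27 steeper and 1 less steep in medium and big oocytes and 0 less steep in small. Thinned libraries gave 7 lower in D than in B and C, and 18 higher and 2 lower in A. All 59 libraries in 1 fit gave 18 higher in D than in E, 23 lower in D than in B and C, and 109 higher and 27 lower in A. At an FDR under 0.05, 4 were higher in D, 13 higher and 3 lower in A, 1 less steep in medium and big and 0 less steep in small oocytes. With an oocyte left out, 0 to 16 were higher in D than in E, 9 to 17 spread, 154 to 231 higher and 6 to 16 lower in D than in B and C, 3 to 69 higher and 1 to 8 lower in A, 12 to 62 steeper and 1 to 8 less steep in medium and big, and 0 to 1 steeper and 0 to 1 less steep in small oocytes. The causes were not tested.

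Steps near 0 that had not been called changed sign. With an oocyte left out, rbpms.L ran from -0.093 to 0.42, tubb.L from -0.0055 to 0.13, tubb.S from -0.0095 to 0.059, Xelaev18046171m from -0.12 to 0.23, soga1.S from -0.10 to 0.061 and exd2.L from -0.049 to 0.070. In thinned libraries rbpms.L was at -0.27, Xelaev18046171m at -0.15 and exd2.L at -0.013, and with D and E alone exd2.L was at -0.0031. The tests of A against B, of D against B and C and of single stage differences under these alternatives were chosen after seeing the data.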
